A study of Mus musculus with 9 samples.

Results

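The data described here are the resting transcriptome of untreated mouse bone marrow macrophages (BMMs), taken as the 3 control libraries among the 9 samples of a study on how medium from the mouse osteosarcoma line K7M2 acts on such cells. BMMs are macrophages grown in culture from precursors of the bone marrow, and they serve as a model of a tissue macrophage that has not yet met a stimulus. The other 6 samples, BMMs kept in the K7M2 medium with or without an agent that the labels call DTM, were not analysed here. The labels give for the control group no mouse strain, genotype, sex or age, no culture time or medium and no statement that the 3 libraries came from separate cultures or animals. The spread between the libraries may therefore be technical, biological or both.

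Macrophages depend on the growth factor M-CSF, whose receptor is the product of Csf1r, and on the transcription factor PU.1 (gene Spi1), which binds near many of the genes that set the lineage apart. They take up particles, dead cells and iron-bearing haem, digest them in lysosomes, and carry receptors for antibodies, complement and microbial products. At rest they make few inflammatory cytokines, which are held in reserve until a signal arrives.

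Levels are given on 2 scales. CPM values are the read counts of a gene scaled to the total of its library. They are used for 1 gene across the 3 libraries, and for calls, shares, sums and rankings stated in CPM or counts. Those are not corrected for the length of the gene. TPM values are also divided by the length of the exons, and they are used for the other comparisons between genes. Values in 3 libraries stand in the order control 1, control 2, control 3, and an error is the SD over these 3 libraries (n = 3). A gene was called expressed at 1 CPM or more in every library, and near silent where it had counts but stayed under 0.1 CPM in every library. The gene lists were chosen with earlier results of these data known, so a count of expressed members describes a list and tests nothing.

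The libraries held 48976788, 49532150 and 43084296 counts. At these depths 3 counts, the upper 95% limit on the expected count where 0 were seen, correspond to 0.0613, 0.0606 and 0.0696 CPM. This limit covers counting error only. Of 51826 rows, 11814 were expressed, and 10982 of those were annotated as protein coding. A further 5639 rows were near silent and 28656 had 0 counts in all 3 libraries. By gene symbol, 50.5% of all protein-coding genes were expressed, and this is the share to set beside each list count below.

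Control 1 stood apart from the other two libraries. The correlation of log2 CPM over the 12336 genes with a mean of 1 CPM or more was 0.987 between controls 2 and 3, against 0.977 and 0.969 for the pairs with control 1. These are correlations across genes, which are not independent replicates. In the pair of controls 2 and 3, 242 of these genes (1.96%) differed by more than 2-fold, against 608 (4.93%) and 778 (6.31%) in the pairs with control 1. Control 1 also held transcripts of both sexes. Xist, the RNA that silences an X chromosome in female cells, stood at 67.1, 0 and 0 CPM. The Y-linked genes Eif2s3y, Ddx3y and Kdm5d were counted in all 3 libraries, with Eif2s3y at 2.7, 15.2 and 17.2 CPM. Ddx3y stood at 1.27, 10.1 and 7.08 CPM and Kdm5d at 1.49, 11.4 and 12 CPM, so control 1 was the lowest for all of them and the only library with Xist. The source of this difference was not tested, and most results are given library by library so that they can be read without control 1.

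All 4 macrophage markers were abundant. Lyz2, which encodes the lysozyme of myeloid cells, was the most abundant gene on both scales, at 40013, 23618 and 23709 CPM. Control 1 was the high library, and controls 2 and 3 were nearly equal. This 1 gene held 2.91% ± 0.944 of all counts. Csf1r stood at 2817, 2387 and 2270.4 CPM, rank 23 by CPM and rank 110 by TPM. Cd68, a heavily glycosylated protein of the lysosomal membrane, stood at 1911, 1623 and 2184 CPM and held rank 20 by TPM. Adgre1, which encodes the surface antigen F4/80, stood at 1341, 1009.8 and 892 CPM and held rank 146 by TPM. For Cd68 the highest library was control 3, and for the other 3 markers it was control 1.

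**Figure D1:**
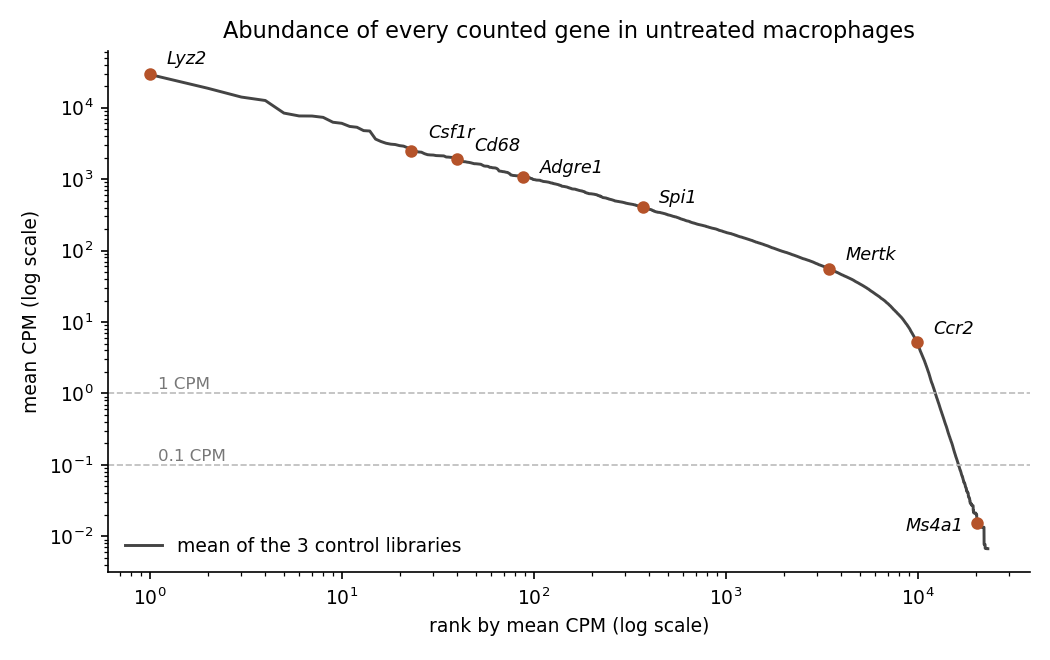
Mean CPM of the 3 control libraries (vertical axis, log scale) against the rank of the gene (horizontal axis, log scale) for all counted genes. The 4 macrophage markers lie between rank 1 and rank 88, while the B cell gene Ms4a1, with 2 counts in 1 library, lies near the far end of the curve.

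RefSeq promoter windows were used to show the start sites of the most abundant genes, because PU.1 sites near the start are a known feature of myeloid promoters. Of the 27 genes among the 20 highest by CPM or by TPM, 19 had a promoter in the table, and 2 of these, Ctss and Spp1, held the PU.1 core GAGGAAGT on either strand within the 300 bases searched, from 250 before to 50 after the start. Among all 19426 promoters matched to the count table, 616 held it, which is 3.17%. The 4 sequences shown run from 130 bases before to 20 bases after the start, in the direction of the gene, from RefSeq (GRCm38.p6). Ctss and Spp1 are shown for the core, written in capitals, and Lyz2 and Cd68 as macrophage markers. Adgre1 had no promoter to show. Csf1r was not among the genes set for display, whether or not its promoter was matched. Lyz2 lies at chr10:117282253-117282402 on the minus strand, Cd68 at chr11:69666151-69666300 on the minus strand, Ctss at chr3:95526656-95526805 on the plus strand and Spp1 at chr5:104434981-104435130 on the plus strand.
Lyz2: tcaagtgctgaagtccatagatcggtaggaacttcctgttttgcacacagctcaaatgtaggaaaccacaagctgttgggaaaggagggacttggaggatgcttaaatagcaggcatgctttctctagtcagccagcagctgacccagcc
Cd68: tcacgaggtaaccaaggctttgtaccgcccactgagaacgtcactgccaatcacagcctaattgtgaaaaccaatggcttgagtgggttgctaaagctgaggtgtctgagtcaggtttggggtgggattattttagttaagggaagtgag
Ctss: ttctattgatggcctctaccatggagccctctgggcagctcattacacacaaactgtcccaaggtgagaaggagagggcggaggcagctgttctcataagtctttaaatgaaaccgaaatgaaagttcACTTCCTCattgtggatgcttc
Spp1: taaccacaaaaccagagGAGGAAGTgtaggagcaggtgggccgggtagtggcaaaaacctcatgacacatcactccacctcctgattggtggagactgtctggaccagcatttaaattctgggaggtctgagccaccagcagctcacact
In Ctss the core is read on the opposite strand, as ACTTCCTC, and begins 2 bases before the start. In Spp1 it lies on the strand of the gene, 113 bases before the start. The absence of these letters from Lyz2 and Cd68 concerns this exact spelling in this window and says nothing of PU.1 binding. Only 74.7% of the genes with a mean of 1 CPM or more had a promoter in the table, under the 80% needed, so a check of promoter features by abundance was void.

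The counts were concentrated in few genes. The 20 most abundant genes held 17.6%, 14.7% and 14.9% of all counts, a mean of 15.7% ± 1.61. Of all rows, 72 genes held 25% of the counts, 538 genes held 50% and 4718 held 90%. By mean CPM, 98 genes stood at 1000 or more, 1820 between 100 and 1000, 6654 between 10 and 100 and 3764 between 1 and 10. Protein-coding transcripts took 97.2% of the counts, mitochondrially encoded ones 1.05% and long noncoding RNAs 0.434%.

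Lysosome and iron genes led the list. After Lyz2, the highest genes by TPM were Ftl1 and Fth1, the light and heavy chains of the iron store ferritin, at 16020.5 ± 2408 TPM and 15198 ± 945 TPM. The lysosomal protease cathepsin D (Ctsd) followed at 15059.9 ± 1849 TPM, the saposin precursor Psap stood at 8635 ± 734 TPM and cathepsin B (Ctsb) at 6550.1 ± 293 TPM. Hmox1, the enzyme that opens the haem ring, stood at 4909, 2761 and 3220.3 CPM, and control 1 was above the other two libraries. The secreted or surface proteins Spp1 (osteopontin), Apoe (a lipid carrier) and Gpnmb (a glycoprotein of stressed lysosomes) were also among the 20 highest by CPM. Spp1 stood at 6434, 5789.8 and 5885 CPM and Gpnmb at 6082, 8219 and 8646 CPM. Spp1 was nearly equal in the 3 libraries, while Gpnmb was lowest in control 1.

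Cytoskeleton, translation and glycolysis filled most of the remaining top places. Actb (beta-actin) stood at 5739 ± 409.9 TPM, Eef1a1, which brings transfer RNA to the ribosome, at 8289 ± 777 TPM, and Pkm, the pyruvate kinase of the last step of glycolysis, at 2689.6 ± 51 TPM. Tmsb4x, which binds free actin, spread widely at 7592, 3594 and 4753 CPM. Lcp1 (L-plastin, an actin bundler of leukocytes), Adam8 (a surface protease), Prdx1 (a peroxide-reducing enzyme), Eef2 (an elongation factor) and Mpeg1 (the pore-forming perforin-2) completed the 20 highest by CPM together with mt-Co1. Mpeg1 was among the steadiest of them at 2908, 2893 and 3019.6 CPM. Only the mitochondrial gene mt-Co1 represented that genome in the top 20, at 4329, 6514 and 7895 CPM, with control 1 lowest.

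**Figure D2:**
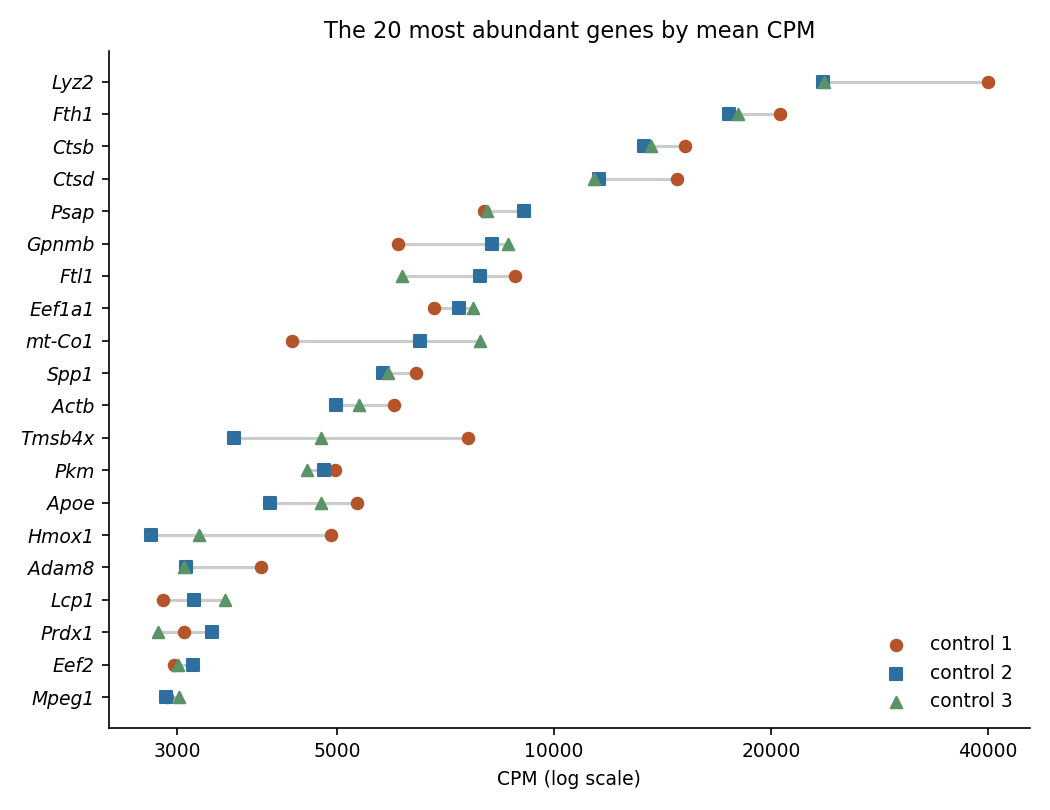
CPM (horizontal axis, log scale) of the 20 genes with the highest mean CPM, with 1 point for each control library and a grey line from the lowest to the highest. Control 1 is the highest point for Lyz2, Tmsb4x and Hmox1 and the lowest for mt-Co1 and Gpnmb.

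By TPM the order changed for short transcripts. The ribosomal protein gene Rplp1 held rank 10 by TPM and rank 72 by CPM, the galectin gene Lgals1 rank 16 and rank 44, and the complement genes C1qb and C1qa ranks 15 and 19 by TPM against 29 and 48 by CPM. The predicted gene Gm29216 held rank 17 by TPM. Some mitochondrial genes had partners with nearly equal counts: the nuclear pseudogenes Gm28437, Gm28661 and Gm10222 had counts within 1% of those of mt-Co3, mt-Co2 and mt-Nd4l in every library. Such near-identical pairs cannot be told apart in these counts, and the levels of both members are uncertain.

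All listed genes of macrophage identity were expressed. Of the other myeloid and macrophage surface genes, 16 of 16 were expressed, with a median of 797 TPM, against 1.17 TPM over all protein-coding genes and 16.7 TPM over all expressed genes. The highest by TPM were Ctss (cathepsin S, at 4709.5 ± 206 TPM), the galectin gene Lgals3 (at 3301 ± 517 TPM) and the adaptors Tyrobp and Fcer1g, which pass on signals from many activating receptors (at 3256 ± 817 TPM and 2998 ± 331 TPM). Itgb2, the shared chain of the leukocyte integrins, stood at 1278, 969 and 1053 CPM, and Sirpa, the receptor of the do-not-eat signal CD47, at 1604, 1456 and 1486 CPM. For Itgb2 and Sirpa the highest and lowest libraries differed by less than 1.5-fold, while Tyrobp was highest in control 1 at 1021, 701 and 600.0 CPM.

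All 28 lineage transcription factors listed were expressed, at lower levels than the surface genes, with a median of 29.7 TPM. Spi1 was the highest at 408, 374 and 433 CPM (424 ± 36.9 TPM, rank 338 by TPM). Cebpb stood at 155, 148 and 158 CPM and Cebpa at 274, 172 and 183 CPM. Cebpa and Cebpb are factors of myeloid differentiation, and control 1 was the high library of Cebpa, while Cebpb was nearly even. Irf5 and Stat6, which act downstream of microbial sensors and of the interleukin-4 receptor, stood at 173, 169 and 181 CPM and 374, 362 and 384 CPM. The median SD of log2(CPM + 0.5) of the factors was 0.158, against 0.193 over all expressed genes. That comparison was not matched for level. The median SD was 0.276 for genes at 1 to 10 CPM, 0.184 at 10 to 100 CPM and 0.136 at 100 to 1000 CPM, and the factors had a median of 72.1 CPM.

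Genes that mark macrophages of particular tissues were counted list by list. Of 11 microglia genes, 6 were expressed, a share near the 50.5% of all protein-coding genes. Fcrls, a receptor-like gene of mouse microglia, stood at 196, 78.1 and 77.9 CPM, with control 1 high. The defining transcription factor of microglia, Sall1, had 2 counts in each library, and Tmem119 stood at 7.8, 8.44 and 8.17 CPM. The fractalkine receptor Cx3cr1, one of the genes in the study's title, differed among all 3 libraries at 135, 38.4 and 73.7 CPM. The interferon-induced Ifit1, from the same title, stood at 0.755, 0.949 and 0.952 CPM.

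Of the Kupffer cell genes, Id3 stood at 152, 149.8 and 149.7 CPM and Cd5l, a secreted scavenger protein, at 64.1, 135 and 121 CPM, while Clec4f had 0 counts and Timd4 was near silent. Of the alveolar macrophage genes, Pparg, the factor that directs their development, stood at 16.8, 23 and 23.4 CPM and Marco, a scavenger receptor, at 20, 18.2 and 19.5 CPM, while Car4 and Fabp1 had 0 counts. Spic, the factor of red pulp macrophages, stood at 1.23, 1.25 and 1.56 CPM. No list of a tissue macrophage was expressed in full. Of the Kupffer cell genes 5 of 8 (62.5%) were expressed, and of the matched alveolar macrophage genes 5 of 8 (62.5%). Of the peritoneal and red pulp macrophage genes 8 of 11 (72.7%) were expressed, against 50.5% of all protein-coding genes. Of 15 osteoclast genes, 10 (66.7%) were expressed, against the same 50.5%. They were led by Tcirg1, a subunit of the proton pump, at 277, 272 and 275 CPM. The RANK receptor gene Tnfrsf11a stood at 104, 92.6 and 91.6 CPM. The calcitonin receptor Calcr, a marker of mature osteoclasts, had 0 counts.

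The monocyte genes had a median of 7.5 TPM, and 10 of 11 were expressed. Ly6c2, the surface antigen of classical monocytes, stood at 5.98, 3.92 and 3.3 CPM and the chemokine receptor Ccr2 at 3.16, 6.46 and 5.97 CPM. F13a1, which encodes the A chain of coagulation factor XIII, was the highest gene of that list by TPM and stood at 579, 264 and 281 CPM, with control 1 above the other two. Chil3, which encodes the chitinase-like protein Ym1, stood at 108, 49.6 and 31.1 CPM.

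Markers of other cell types were checked list by list. Of the T and NK cell genes 7 of 12 had 0 counts, among them the T cell receptor partners Cd3e, Cd3d and Cd3g, and of the erythroid genes 0 of 10 were expressed. The B cell factor Pax5 had 0 counts, and Ms4a1, which encodes the surface antigen CD20, had 2 counts in control 3. Antibody genes were counted in every library, Igkc at 24.3, 6.92 and 6.41 CPM, Ighg2b at 19.6, 6.78 and 7.47 CPM and Igha at 26.8, 3.96 and 1.35 CPM. Control 1 was highest for each of these antibody genes, which were chosen after their values were seen. Their cell of origin was not tested. Ccr7 and Cd209a, genes of dendritic cells, had 0 counts, and Flt3 had 2 counts in control 2. The epithelial keratins Krt8, Krt5 and Krt14 had 0 counts. Over whole lists, 1 of 12 T and NK cell genes, 3 of 10 B cell genes, 2 of 11 dendritic cell genes and 1 of 8 epithelial genes were expressed. The same held for 1 of 11 genes of mast cells, basophils and eosinophils, 4 of 9 of stem and progenitor cells and 5 of 10 of endothelium. For comparison, 50.5% of all protein-coding genes were expressed.

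Neutrophil genes were counted more widely. Of 15, 10 (66.7%) were expressed, against 50.5% of all protein-coding genes, and the summed level of the list was 854, 481 and 336 CPM. The calprotectin genes S100a9 and S100a8 stood at 215, 123 and 53 CPM and at 114, 55.6 and 23.3 CPM, and Ngp, a granule protein of immature neutrophils, at 276, 121 and 112 CPM. Camp and Ltf, genes of the specific granules, stood at 32.9, 11.3 and 6.22 CPM and 99.5, 49.5 and 31.6 CPM. Control 1 was highest in all 5 of these genes and control 3 lowest. Of the 10 expressed members, 7 were highest in control 1, 1 in control 2 and 2 in control 3. Over all 11806 expressed gene symbols, 2970 were highest in control 1. In bulk RNA, fewer cells of a type and less RNA per cell cannot be told apart. The collagenase gene Mmp8 went the other way, at 28, 59.9 and 64.8 CPM.

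Mesenchymal genes were also present. Acta2, the actin of smooth muscle and myofibroblasts, stood at 669, 836 and 1003 CPM, rank 128 by TPM. The type I collagen genes Col1a1 and Col1a2 stood at 456, 289 and 256 CPM and 316, 301 and 246 CPM, and Col3a1 at 53.5, 47.5 and 43.4 CPM. Col1a1 was highest in control 1 and Acta2 in control 3, so these genes had their highest values in different libraries. Of the other genes in the list of stromal and bone genes, Lepr and Lum had 0 counts and Bglap, the osteocalcin gene, had 2 counts in control 2. In all, 11 of 16 (68.75%) were expressed, against 50.5% of all protein-coding genes, with a summed level of 1648, 1625 and 1699 CPM. The part of stromal cells in any level given here was not tested. Pf4, the platelet factor 4 gene, stood at 636, 351 and 325 CPM, but no other megakaryocyte gene of the list was expressed.

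**Figure D3:**
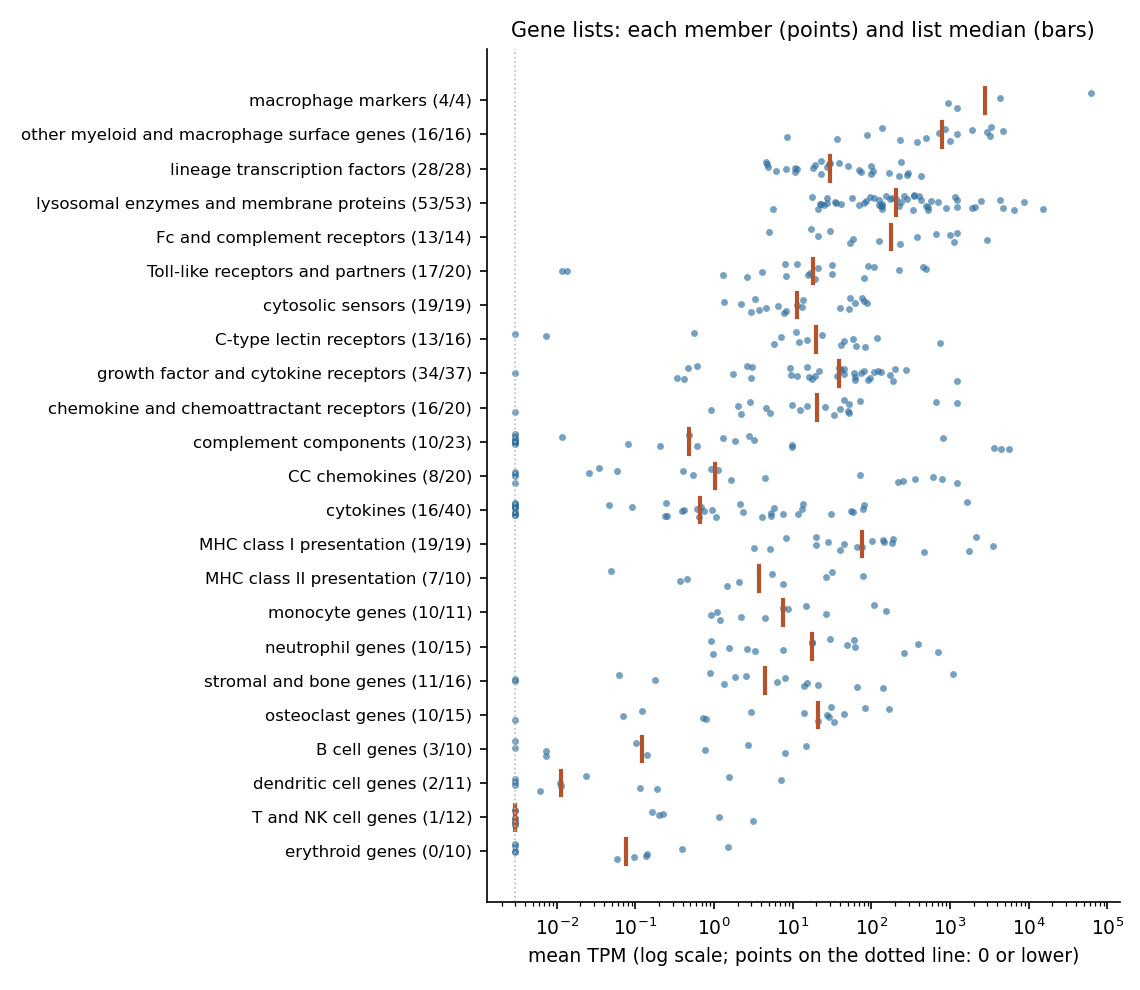
Mean TPM (horizontal axis, log scale) of each member of 23 gene lists, with 1 point per gene, the list median as a bar and the number of expressed members of those matched in brackets. The macrophage, lysosomal and receptor lists lie far to the right of the lymphoid and erythroid lists, and the 3 lists of secreted proteins shown run from 0 to over 1000 TPM.

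The receptors for antibody and complement had the highest median TPM of the receptor lists. Of 14, 13 were expressed, with a median of 177 TPM. C5ar1 and C3ar1, the receptors of the complement fragments C5a and C3a, stood at 1411, 1022 and 972 CPM and 1084, 947 and 1036 CPM. Fcgr3, a low-affinity receptor for IgG, stood at 725, 549 and 782 CPM, and the high-affinity receptor Fcgr1 at 281, 188 and 167 CPM. The activating receptor Fcgr4 stood at 34.9, 66.9 and 63 CPM, with control 1 the low library. Itgam, the CD11b chain of the complement receptor CR3, stood at 700.1, 650.2 and 677 CPM with its 2 rows summed.

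Scavenger receptors ranged widely by TPM. Cd36, which binds oxidised lipoprotein and long-chain fatty acid, stood at 1024 ± 204 TPM, Stab1 at 581 ± 87.1 TPM and Lrp1, a large endocytic receptor, at 460.3 ± 14.8 TPM. Mrc1, the mannose receptor, stood at 92.9, 243 and 239 CPM, so control 1 held less than the other two libraries, which were nearly equal. Olr1 had 4 counts, all in control 3. Among the receptors for dying cells, Trem2, a lipid sensor that signals through Tyrobp, stood at 779, 582 and 513 CPM, Axl at 150.3, 204 and 213 CPM and Mertk at 47.1, 56.9 and 63.5 CPM, while Timd4 and Adgrb1 were near silent.

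Microbial sensors were expressed as a family. Of the Toll-like receptors and their partners 17 of 20 were expressed. Cd14, the lipopolysaccharide co-receptor, stood at 368, 293 and 248 CPM, and Unc93b1, which carries the nucleic acid receptors to endosomes, at 600.3, 409 and 449 CPM. The highest receptor of the family itself by TPM was Tlr13, which binds bacterial ribosomal RNA, at 223 ± 44.2 TPM, followed by Tlr2 for lipoproteins at 80.2 ± 9.47 TPM and Tlr7 for single-stranded RNA at 31.8 ± 4.6 TPM. Tlr11 and Tlr12 had 2 counts each. All 19 cytosolic sensors were expressed, with the inflammasome genes Casp1, Pycard and Nlrp3 at 33.5, 53.4 and 52.4 CPM, 87.9, 91.7 and 71.5 CPM and 95.4, 64.6 and 63 CPM. The DNA-sensing adaptor STING (Tmem173 in the table) stood at 71.8, 78.1 and 87.6 CPM. Among C-type lectin receptors Clec4d was the highest by TPM, at 439, 422 and 427 CPM, and the beta-glucan receptor Clec7a stood at 47.9, 52.5 and 62.9 CPM.

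Of the growth factor and cytokine receptors 34 of 37 (91.9%) were expressed, against 50.5% of all protein-coding genes. After Csf1r the highest by TPM were the TNF receptors Tnfrsf1a and Tnfrsf1b at 277 ± 12.3 TPM and 199.9 ± 10.9 TPM, and Csf2ra, the specific chain of the GM-CSF receptor, at 187 ± 32.3 TPM. Both chains of the interferon-gamma receptor were present, Ifngr1 at 142, 129.8 and 131 CPM and Ifngr2 at 159, 149 and 177 CPM. Il18r1 had 0 counts. Of the chemokine and chemoattractant receptors, the sphingosine 1-phosphate receptor S1pr1 stood at 74.6, 75.6 and 83.9 CPM and the platelet-activating factor receptor Ptafr at 67.6, 68 and 64.8 CPM, both nearly even. Ccr7, which guides cells to lymph nodes, had 0 counts.

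Inhibitory and paired receptors were expressed in 30 of 31 cases. Below Sirpa and Trem2, Cd48 stood at 137, 150.3 and 153 CPM, Lilrb4a, an inhibitory receptor of myeloid cells, at 236, 369 and 402 CPM with its rows summed, and Siglec1, which binds sialic acid on other cells, at 500.4, 345 and 355 CPM. The checkpoint ligand Pdcd1lg2 had 0 counts. Among the purine and lipid mediator receptors P2ry6, a receptor for UDP, led at 333, 255 and 318 CPM, and Gpr84, a receptor for medium-chain fatty acids, stood at 92.4, 36 and 47.4 CPM with control 1 high. Rxra, the shared partner of many nuclear receptors, stood at 163, 162 and 166 CPM and was the highest of 20 nuclear receptors by TPM.

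The share of members expressed differed among lists of secreted proteins, and it was 50.5% over all protein-coding genes. It was 43.5% for complement components, 40% for CC chemokines, 41.2% for CXC and other chemokines and 40% for cytokines. It was 68.75% for growth and angiogenic factors and 80.6% for matrix proteases and their inhibitors. Of 34 other secreted proteins 31 (91.2%) were expressed, with 8.72% of all counts. The complement C1q chains C1qa, C1qb and C1qc, which recognise bound antibody and dying cells, stood at 5463, 3925 and 4107 TPM, 6717, 5054 and 5105 TPM and 4163, 3153 and 3471 TPM, with control 1 the highest library for each. Properdin (Cfp), which stabilises the alternative pathway convertase, stood at 577, 477 and 454 CPM. Of 23 complement components, 8 had 0 counts, among them the terminal genes C6, C7, C8a and C9.

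Of the CC chemokines 8 of 20 were expressed, 4 had 0 counts and the others lay in between. Ccl2 stood at 387, 519.9 and 568 CPM, Ccl6 at 457, 511 and 548 CPM and Ccl9 at 655, 717 and 623 CPM. Ccl2 was the highest of the list by TPM, at 1224 ± 268 TPM. Ccl7, Ccl4 and Ccl3 followed at 361 ± 31.6 TPM, 255 ± 17.2 TPM and 221 ± 35.1 TPM, while Ccl1, Ccl11, Ccl19 and Ccl21a had 0 counts. Ccl2 and Ccl7 attract monocytes. Among the CXC chemokines Cxcl14 stood at 572, 212 and 242 CPM, with control 1 more than 2-fold above the others, and Cxcl16, a membrane-bound ligand, at 152, 112 and 133 CPM. The interferon-induced Cxcl9 and Cxcl11 were near silent and Cxcl13 had 0 counts.

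Of 40 cytokines 16 were expressed and 11 had 0 counts. Mif led at 534, 391 and 366 CPM, and the M-CSF gene Csf1 itself was expressed at 145, 151 and 156 CPM. Tnf stood at 39.1, 31.6 and 32 CPM, Il18 at 8.96, 11.2 and 13.8 CPM and Osm at 16.3, 8.04 and 8.59 CPM. Ifnb1, Ifng, Il12a, Il12b, Il23a and Il33 had 0 counts in all 3 libraries, so the upper limit for each of them was 3 counts per library.

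Of the growth and angiogenic factors 22 of 32 were expressed. The progranulin gene Grn, whose product serves the lysosome, stood at 1322, 1378 and 1541 CPM, Gas6, the ligand of Axl and Mertk, at 634, 614 and 603 CPM and Tgfb1 at 435, 399 and 489 CPM. Igf1 stood at 312, 307 and 329 CPM. Pdgfb stood at 112, 52.3 and 53 CPM, and control 1 was above both other libraries by more than 2-fold. Angpt1 and Areg had 0 counts.

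Of the matrix proteases and their inhibitors 25 of 31 were expressed. Plau, the urokinase gene, stood at 2097, 811 and 737 CPM and Timp1, an inhibitor of matrix metalloproteinases, at 187, 83.6 and 79.8 CPM, both more than 2-fold higher in control 1 than in either other library. The elastase gene Mmp12 went the other way at 627, 858 and 1039 CPM. Adam8 and the cysteine protease inhibitor Cst3 were steadier, at 3919, 3090.1 and 3069.6 CPM and 783, 741 and 649 CPM.

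All 53 lysosomal genes listed were expressed, and together they took 6.33% of all counts. The list median was 208 TPM, against 16.7 TPM over all expressed genes. Below Ctsd, Psap, Ctsb and Ctss came Lamp1, the main protein of the lysosomal membrane, at 2184, 2363 and 2590.3 CPM, the asparagine endopeptidase Lgmn at 1672, 1480.3 and 1922 CPM and cathepsin Z (Ctsz) at 905, 967 and 1029 CPM. As a set the list shifted little: the median deviations of the libraries from their mean were 0.01, -0.02 and 0.04 on the log2 scale. Single members differed in direction, with 22 highest in control 1, 8 in control 2 and 23 in control 3. The summed level was 66550, 61556 and 61862 CPM.

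Iron handling took 3.28% of the counts, most of it in Fth1, Ftl1 and Hmox1. Slc48a1, which brings haem out of the phagosome, stood at 876, 678 and 732 CPM and Slc11a1, a metal transporter of the phagosome, at 655, 535 and 592 CPM, while the hormone gene Hamp had 2 counts each in controls 1 and 3. All 21 antioxidant genes were expressed. Among them Gpx1, a glutathione peroxidase, was uneven at 58.1, 541 and 152 CPM, with control 2 far above the others. Prdx5 stood at 639, 314 and 256 CPM, with control 1 high.

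Energy genes were expressed throughout. All 25 glycolysis genes and all 32 nuclear genes of oxidative phosphorylation were expressed, with medians of 91.4 and 197 TPM. After Pkm, Aldoa stood at 2275, 1994 and 2064 CPM, Pgk1 at 1913, 1539 and 1266 CPM and Ldha at 1622, 1433 and 1256 CPM. The nuclear respiratory genes had median deviations of 0.07, 0.07 and -0.12 on the log2 scale, with control 3 lowest, whereas the mitochondrially encoded transcripts stood at 7403, 10891 and 13144 CPM in sum, with control 1 lowest. Cholesterol genes were expressed in 20 of 21 cases. Srebf2, their main activator, was nearly even at 235, 239 and 252 CPM. Control 1 was the highest library for 0 of the expressed members of that list, and for 2970 of all 11806 expressed gene symbols.

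Antigen presentation differed by class. All 19 class I genes were expressed, with B2m, the light chain, the highest by TPM at 1001, 963 and 1215 CPM. The heavy chains H2-D1 and H2-K1 stood at 1758, 1626 and 1469 CPM and 560.3, 463 and 441 CPM. Of the class II genes 7 of 10 were expressed, led by H2-DMb1, a chain of the peptide exchanger, at 79.2 ± 4.73 TPM. The peptide-binding chains were lower: H2-Ab1, H2-Aa and H2-Eb1 stood at 7.49 ± 1.05 TPM, 1.48 ± 0.48 TPM and 2.06 ± 0.166 TPM. Their invariant chain Cd74 stood at 36.2, 10.9 and 9.73 CPM, with control 1 more than 3-fold above each other library. The medians of the lists were 76.5 and 3.76 TPM.

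Of the classical activation genes 8 of 17 were expressed, a share near the 50.5% of all protein-coding genes. Nos2, the inducible nitric oxide synthase, had 0 counts, Ido1 had 2 counts in control 3, Ptgs2 stood at 9.88, 7.69 and 9.01 CPM and Acod1, which makes itaconate, at 3.35, 5.53 and 5.59 CPM. Of the alternative activation genes 10 of 19 were expressed, also near that share. Arg1, the arginase that competes for arginine, stood at 652, 311 and 342 CPM and Tgm2, a transglutaminase, at 358, 281 and 326 CPM, while Retnla had 0 counts. Of 46 interferon-stimulated genes 37 were expressed, led by Ifitm3 at 361, 316 and 223 CPM and Bst2 at 464, 275 and 269 CPM, both of which block viruses at membranes. The median over all members of the list was 8.32 TPM, against 1.17 TPM over all protein-coding genes.

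The cells expressed all 41 proliferation genes listed, with a summed level of 7493, 9562 and 9734 CPM. Ccnd1, the cyclin induced by growth factors, stood at 1023, 1191 and 1144 CPM, Pcna, the sliding clamp of DNA replication, at 611, 636 and 594 CPM and Mcm5, part of the replicative helicase, at 340.1, 346 and 338 CPM, each nearly even. Genes of mitosis were not even: Mki67 stood at 25.6, 121 and 84 CPM, Ccnb2 at 37.1, 126 and 128 CPM and Anln, of the contractile ring, at 21.3, 82.7 and 78 CPM. These 3 genes were chosen after their values were seen, and in each of them control 1 lay below the other two libraries by more than 3-fold.

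Of 26 immediate-early genes, 24 were expressed, and 15 of those were highest in control 1, as were 2970 of all 11806 expressed gene symbols. Egr1, a factor switched on quickly by growth factors, stood at 131, 5.19 and 6.38 CPM. Junb, a partner in AP-1, stood at 253, 123 and 146 CPM, Rhob at 352, 243 and 227 CPM and Ier2 at 113, 41.7 and 46.5 CPM, with control 1 high in each, whereas Jun stood at 197, 223 and 240.2 CPM with control 1 lowest. Heat shock and unfolded protein genes spread less, with a median SD of log2(CPM + 0.5) of 0.155, against 0.383 for the immediate-early genes.

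**Figure D4:**
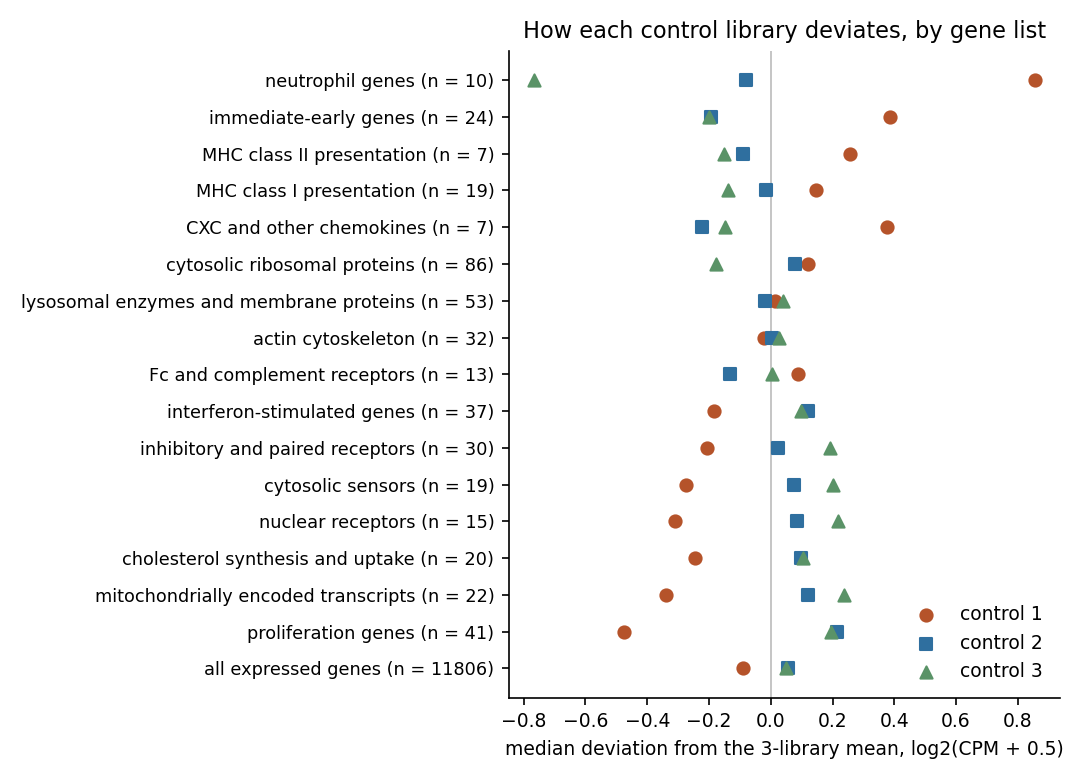
Median deviation of each control library from the mean of the 3 (horizontal axis, log2(CPM + 0.5)) over the expressed members of 17 gene lists, with the number of members in brackets. Control 1 is at 0.85 for neutrophil genes and 0.38 for immediate-early genes and at -0.48 for proliferation genes, while all expressed genes lie at -0.09.

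Across lists, the libraries deviated in different directions. The median deviations of neutrophil genes were 0.85, -0.08 and -0.77, those of immediate-early genes 0.38, -0.19 and -0.20 and those of proliferation genes -0.48, 0.21 and 0.20. Over all expressed genes they were -0.09, 0.06 and 0.05. The ribosomal protein genes deviated by 0.12, 0.08 and -0.18, with control 3 lowest. Neutrophil, sex-linked and mitochondrial transcripts differed in control 1 along with the other lists, and their part in those differences was not tested.

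The spread of single genes was small for most. Among the 9923 genes with a mean of 5 CPM or more, the median SD of log2(CPM + 0.5) was 0.18 and the median ratio of the highest to the lowest library was 1.28. For 73.0% of these genes that ratio was under 1.5, and for 75 genes it was over 4. Control 1 was over 2 times the mean of the other two in 85 genes (0.857%) and under 1/2 of it in 362 (3.65%). For control 2 the counts were 48 (0.484%) and 62 (0.625%), and for control 3 they were 48 (0.484%) and 116 (1.17%). With TMM scaling, which lowers the effective size of control 1, the 85 genes came to 120 and the 362 genes to 224. The common biological coefficient of variation, the relative spread between libraries beyond counting error in edgeR, was 0.225, and without control 1 it was 0.164.

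The 20 genes with the largest spread fell into distinct kinds. Xist had the largest SD, 4.09. Egr1 (SD 2.54), the antibody gene Igha at 26.8, 3.96 and 1.35 CPM and the lubricin gene Prg4 at 47.6, 4.1 and 9.12 CPM were high in control 1 and low in the other two. Others were high in control 2 alone, as the RNA exosome subunit gene Exosc6 at 1.55, 27.5 and 0.0464 CPM and the transcription factor gene Tead1 at 0.98, 16.1 and 1.6 CPM. C5ar2, a second receptor of C5a, was low in control 3 alone at 9.94, 8.98 and 0.0696 CPM, as was Mfap3 at 61.6, 73.9 and 8.43 CPM. Zfp422 was high in control 3 alone at 2.55, 3.57 and 25.1 CPM. Rnf26 appears on 2 rows of the table, both of which were high in controls 1 and 2 and low in control 3.

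Several of these genes share exon sequence with another gene. Of the 18 of the 20 that could be matched to the annotation, 9 (50%) had at least 20% of their exon bases inside the exons of another gene on either strand, against 7.59% of all genes at 5 CPM or more. Exosc6, Gm45717, Gm20716 and Pcdhga10 lay wholly within such exons. Gm45717 stood at 0.143, 0.323 and 94.5 CPM and Pcdhga10 at 25.7, 1.09 and 1.04 CPM. The other rows of the 20, Gm45736, SETD1A, Gm21982, Gm11960, Pcdhga2 and Ugt1a5, also had most of their counts in 1 or 2 libraries, and SETD1A and Gm45736 could not be matched. Reads that fall where genes overlap cannot be assigned with certainty, and the levels of these genes are uncertain.

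**Figure D5:**
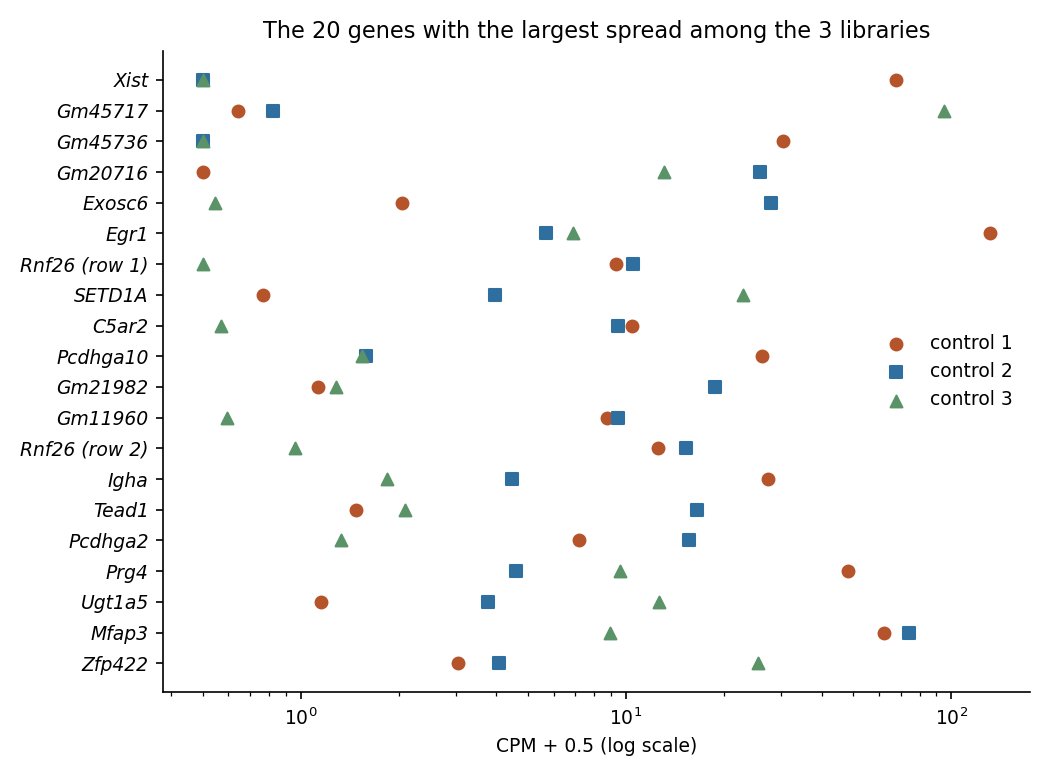
CPM + 0.5 (horizontal axis, log scale) in each control library for the 20 rows with the largest SD of log2(CPM + 0.5) among genes with a mean of 5 CPM or more. Xist, Egr1, Igha and Prg4 are high in control 1, whereas Exosc6, C5ar2 and both rows of Rnf26 are lowest in control 3.

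Some genes outside those 20 also spread widely. Fn1, which encodes fibronectin, stood at 2179.6, 558 and 601 CPM, more than 3-fold higher in control 1 than in either other library, and Ch25h, which makes an oxysterol, at 118, 31.4 and 36.7 CPM. Cd300e, an activating receptor, stood at 3.76, 29.7 and 29.8 CPM, low in control 1 and equal in the other two. Gdf3, a growth factor of the TGF-beta family, stood at 84.8, 12 and 10.4 CPM, high in control 1. Tlr4, the receptor of lipopolysaccharide, was low in control 3 at 16.7, 29.1 and 3.64 CPM, and 0% of its exon bases were shared with another gene. These 5 genes were chosen after their values were seen.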

How the data were processed

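The authors deposited raw counts of reads per gene symbol for 9 libraries, with 0 columns that no sample matched. Per the labels' protocols, RNA was isolated with TRIzol and made into libraries with an mRNA kit for sequencing on a DNBSEQ-T7. Per the submitters' processing notes, HISAT2 2.1.0, Trimmomatic 0.36, DESeq2 1.12.4 and FastQC 0.11.2 were used, with the builds GRCh38 and mm39 listed without a role. The counting program, annotation and strand setting are not given in the sources used here. Therefore overlapping genes, antisense pairs and near-identical copies are uncertain. On 11 rows a date stood in place of the symbol, with 0.0318% of the counts, and 183 rows shared 91 symbols. Rows with the same symbol were summed for gene lists and kept apart elsewhere.

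Only the 3 control libraries were used, and no group was compared, so no test of a difference was run. CPM were computed from library totals and TPM from the merged exons of GENCODE vM21 (GRCm38), for genes of 200 bases or more. A length was found for 96.1% of counted rows (233 through a RefSeq synonym), and genes long enough held 99.8% of the counts. The spread was described with edgeR 4.0.16 in R 4.3.3 (filterByExpr, TMM, an intercept only) and with a pseudocount of 0.5, and the dispersion step was checked on simulated counts. A chi-square statistic on the counts of each pair, divided by its degrees of freedom, came to 42.7, 102 and 122. It treats reads as independent molecules and served only to look for a library sequenced more than once, for which it would lie near 1. Named genes were the markers, the 20 highest by CPM and by TPM, up to 8 highest members by TPM and up to 6 silent members of each list, and the 20 genes with the largest spread at 5 CPM or more. Predicted genes were named only among the 20 genes of these rankings, or as pseudogenes with counts nearly equal to those of a mitochondrial gene. The members and gene lists were chosen with earlier results of these data known. Genes named for a marker role, for the title of the series or after their values were seen lie outside this rule.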

Additional observations from a re-analysis of the deposited data

How the results depend on the processing

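The number of genes expressed in every control library stayed within 1.5 times of 11814 under each alternative, from 11806 with shared symbols summed to 14133 at 10 counts, and from 11875 to 12083 with 1 library left out. The share of the 20 most abundant genes was 15.5% without mitochondrially encoded genes and 14.8% to 16.2% with 1 library left out. The common biological coefficient of variation ran from 0.164 to 0.265 with 1 library left out, and its lowest value was the one without control 1. It was 0.256 with no filter and 0.225 with DESeq2 size factors. The median SD of log2 CPM was 0.179 with a pseudocount of 1 and 0.175 with TMM. Of 59 list medians with a value above 0, 57 moved by less than 1 SD between libraries under TMM, 32 with the longest transcript as length and 14 when CPM replaced TPM; of 177 medians with 1 library left out, 159 did. Promoter features by abundance were not run by TPM tier, because the check was void. No paired analysis was possible because only 1 group was described. Depth limits the silent genes: the upper 95% limit for 0 counts is 3 counts per library, so they were not read as absent.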
